A study of Homo sapiens with 26 samples.

Results

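The LY6/uPAR family genes described here are LY6D, LY6E, LY6K, LY6S, LYPD3, LYPD6B, PSCA and PLAUR. They are 8 of the 62778 genes in 3 count tables, one table for each of 3 established human pancreatic ductal adenocarcinoma cell lines. Members were found by gene symbol. The 8 genes were chosen on expression differences seen earlier in these tables, and which comparison was used is not recorded, so the fold changes and adjusted p-values below describe these genes and are not independent evidence for them. All 8 had a row in the AsPC-1 table, and 7 had one in the Panc10.05 and BxPC3 tables, where LY6S had none. The filter on low counts was passed by 6 members in Panc10.05 (not LY6D), by 7 in BxPC3 and by 5 in AsPC-1 (not LY6D, LY6K or LYPD6B).

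The study raised or lowered HNF4A, which encodes the nuclear receptor HNF4α, and sequenced poly(A) RNA in 26 libraries. HNF4A has a pair of promoters, P1 and P2, that give different isoforms. In Panc10.05, a doxycycline-inducible construct gave isoform P1-a2 (25 ng/mL doxycycline), P2-a8 (12.5 ng/mL) or, in the control NC, GFP (25 ng/mL). In BxPC3 the groups were P1-a2, P2-a8 and the control NC, labelled EV in the titles, all at 500 ng/mL. Each of these groups had 2 libraries. In AsPC-1 (labelled ASPC1), CRISPR interference, in which guide RNA brings an inactive Cas9 to a promoter, was aimed at P1 (guides sgP1E and sgP1J), P2 (sgP2D and sgP2G) or both (sgDual2 and sgDual3). Each guide and the control guide sgNC had 2 libraries, which gives 4 for each target. The labels do not say that replicates are separate cultures, so p-values measure only the spread between these libraries. In Panc10.05, isoform and dose differ together between P1-a2 and P2-a8.

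Members of the family share a small cysteine-rich fold of looped fingers, and most are held on the outer face of the cell by a glycosylphosphatidylinositol (GPI) anchor. PLAUR, the receptor of urokinase, carries several copies of the fold and holds a protease at the cell surface. Several of the smaller members lie side by side in the genome, and some are known as surface antigens of carcinomas, PSCA of pancreatic carcinoma among them.

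LYPD3 and PLAUR are shown by the 250 bases upstream of their RefSeq starts (GRCh38.p14), because these chromosome 19 genes moved in opposite directions under P1-a2. LYPD3 and PLAUR have 10 other protein-coding genes between them. Both are on the minus strand and are printed 5′ to 3′ on it. The LYPD3 sequence covers chr19:43465609-43465858 and the PLAUR sequence chr19:43670170-43670419. Capitals mark GC boxes (GGGCGG, also as CCGCCC on the other strand) in LYPD3 and an AP-1 motif (TGAGTCA) in PLAUR.
LYPD3: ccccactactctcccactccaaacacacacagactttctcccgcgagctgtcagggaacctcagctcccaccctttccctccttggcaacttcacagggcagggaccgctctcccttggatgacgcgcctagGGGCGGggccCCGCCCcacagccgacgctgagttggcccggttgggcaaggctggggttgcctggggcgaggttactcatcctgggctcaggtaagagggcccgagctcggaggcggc
PLAUR: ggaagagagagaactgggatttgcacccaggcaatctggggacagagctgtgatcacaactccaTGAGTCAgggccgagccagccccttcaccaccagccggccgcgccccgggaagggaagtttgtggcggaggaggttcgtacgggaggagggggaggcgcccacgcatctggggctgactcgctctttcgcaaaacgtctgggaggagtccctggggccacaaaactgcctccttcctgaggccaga

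The LYPD3 window has a GC content of 66.4% and held 2 GC boxes, 118 and 108 bases upstream of the start. The PLAUR window has a GC content of 63.2% and held 1 AP-1 motif, 186 bases upstream. Of 35116 RefSeq windows of the same length, 42.6% held a GC box and 4.2% the AP-1 motif on either strand. The HNF4 motif CAAAGTCCA (0.325% of windows) and the nuclear receptor half-site AGGTCA (12.1%) were searched on both strands and neither was found in the LYPD3, PLAUR or LYPD6B windows. The LYPD6B windows searched, chr2:149077272-149077521 and chr2:149117924-149118173, lie inside the RefSeq span of the gene. The bases upstream of the start of that span, at 149038699, were not searched. A match or its absence describes these letters only.

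Gene coordinates are also those of RefSeq on GRCh38.p14. Chromosome 8 holds PSCA (ENSG00000167653, 142670297 to 142682725), LY6K (ENSG00000160886, 142700111 to 142705127), LY6D (ENSG00000167656, 142784882 to 142786539), LY6E (ENSG00000160932, 143018529 to 143022409) and LY6S (ENSG00000291309, 143040839 to 143076471). Chromosome 19 holds LYPD3 (ENSG00000124466, 43460787 to 43465608) and PLAUR (ENSG00000011422, 43646095 to 43670169). LYPD6B (ENSG00000150556) is on chromosome 2 from 149038699 to 149215262. The counts are of whole genes. Overlaps are given by the GENCODE v29 annotation. In it PSCA overlaps JRK on the other strand, and in RefSeq JRK ends at 142669967, before PSCA starts. LY6D and LY6K overlap antisense genes, and LY6E overlaps LY6E-DT on the other strand. PLAUR overlaps RN7SL368P on its own strand, and LYPD6B overlaps the pseudogene TXNP5 on the other strand. LY6S, by its RefSeq span, overlaps LINC02904. The libraries were made with a directional kit, but the strand setting of the counting is not given in the sources used here, so reads of such overlapping genes may be mixed and their values are uncertain.

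HNF4A counts are given first because they check the labels. In CPM, counts divided by each library's scaled total and put on a common base, HNF4A was at 0.24 and 0.058 in Panc10.05 NC, 10.7 and 12.98 under P1-a2 and 37.6 in both P2-a8 libraries. BxPC3 libraries had 1.08 and 0.464 in NC, 9.76 and 11.6 under P1-a2, and 12.6 and 14.2 under P2-a8. In AsPC-1 they had 206 and 220 with sgNC, 109 to 146 with sgP1, 76.7 to 93.9 with sgP2 and 3.19 to 13.6 with sgDual, so every targeting guide was below both controls. The fall with sgP1 was not past the threshold (log2 fold change -0.72, adjusted p 0.615), nor was that with sgP2 (-1.30, adjusted p 0.0751). Library totals were 34618745 to 46827673 counts for Panc10.05, 26369154 to 37483772 for BxPC3, and 26079388 to 50662077 for AsPC-1. All 6 epithelial marker genes were detected in every line. In AsPC-1, the 5 haematopoietic markers summed to 38.9 to 47.1 CPM with sgNC and 53.7 to 78.5 with sgDual, almost all from LYZ, with CD3E at 0 in all libraries. With sgP1 and sgP2 this sum was lower, at 12.7 to 37.9 and 13.7 to 17.2 CPM, and LYZ had 11.9 to 14.3 CPM with sgP2 against 36.2 to 44.2 with sgNC. The 7 stromal and endothelial markers summed to 165 to 179.6 CPM with sgNC and 279 to 300.4 with sgDual, almost all from LUM. Sums with sgP1 and sgP2 were 178 to 199.9 and 132 to 168 CPM. In BxPC3 these markers summed to 21.4 to 22.1 CPM in NC, 24.9 to 27.8 under P1-a2 and 24.7 to 27.4 under P2-a8, and LUM went from 0.765 and 1.45 CPM in NC to between 6.15 and 6.38 under both isoforms. The part of these markers in the members' results was not tested. In bulk RNA, fewer cells of a kind and less RNA per cell cannot be told apart.

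With an isoform induced, LY6E and LYPD3 fell in both lines, and the share of members called lay near that of all genes in Panc10.05 and above it in BxPC3. Since the genes were chosen on these tables, the counts describe them only. A change was called at an adjusted p under 0.05 in edgeR's quasi-likelihood test over all genes of the table. In Panc10.05, 5 of 6 members tested were called under P1-a2, against 62.0% of all genes. Of these, 2 were higher (31.5% of all genes) and 3 lower (30.5%). Under P2-a8 the count was 4 of 6, against 46.2% of all genes, with 1 higher (23.7% of all genes) and 3 lower (22.5%). In this line LY6K passed the filter on low counts only through NC and LYPD6B only through P2-a8, the groups where they are high. Without both, 3 of 4 members were called under P1-a2 (1 higher and 2 lower) and 2 of 4 under P2-a8 (both lower), so these counts are near the share of all genes. P1-a2 and P2-a8 differed in 2 of 6 members, against 46.9% of all genes (22.2% higher and 24.7% lower), a share below that of all genes. In BxPC3, 6 of 7 members were called under P1-a2 (32.0% of all genes), with 1 higher (17.1%) and 5 lower (14.9%). Under P2-a8 there were 4 of 7 (6.99% of all genes), all 4 lower (2.69% of all genes lower, 4.3% higher). P1-a2 and P2-a8 differed in 3 of 7 (22.5% of all genes), lower under P1-a2 in each (10.8% of all genes lower, 11.6% higher). Comparisons in one line share control libraries.

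With repression in AsPC-1, every member called against sgNC by target was higher. In fits by single guide with a term for the replicate number (the replicate block), LY6E was called lower with sgP2D and sgP2G. Under sgDual, 4 of 5 members tested were called (35.6% of all genes), all 4 higher (17.8% of all genes higher, and 17.8% lower). Under sgP2, 2 of 5 were called (3.42%), LYPD3 and PLAUR, both higher (1.66% of all genes higher, 1.76% lower). Under sgP1 edgeR called 0 of 5 (0.265% of all genes), DESeq2 also called 0, and 1 member, LYPD3, had an unadjusted p under 0.05. Tested singly, sgP1E called 8.62% and sgP1J 3.04% of all genes, so pooling these guides lowers the share called. Between targets, sgP2 and sgP1 differed in 2 of 5 (4.3%), sgDual and sgP2 in 5 of 5 (46.4%), and sgDual and sgP1 in 3 of 5 (38.3%). The median log2 fold change of the members tested was -0.20 and -0.26 in Panc10.05 (P1-a2 and P2-a8), -0.97 and -0.43 in BxPC3, and 1.64 with sgDual, while the median over all genes lay between -0.01 and 0.02. Setting LYPD6B in Panc10.05 to its lower bound leaves the medians there as they are.

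**Figure D1:**
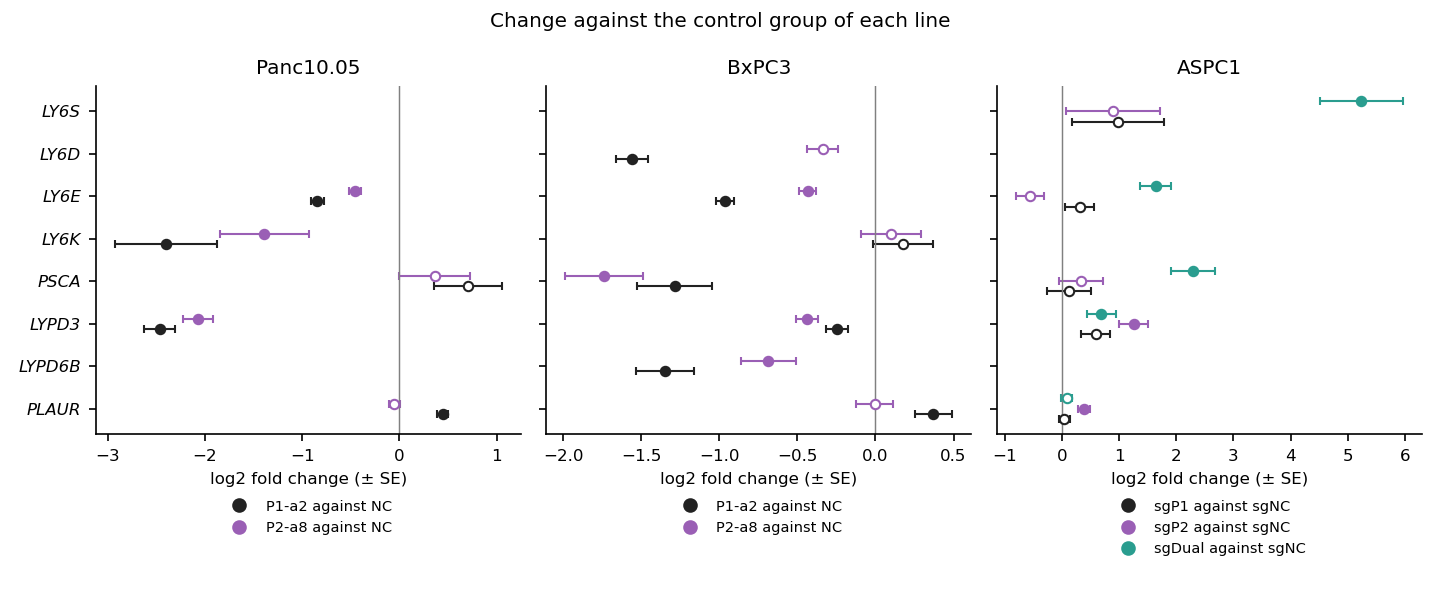
Log2 fold change against the line's control group with its standard error (SE), for each member tested in Panc10.05, BxPC3 and AsPC-1 (ASPC1); filled circles are past an adjusted p of 0.05. LYPD6B in Panc10.05 is left out because its control was at the floor of detection. LY6E lies below 0 in both induced lines (-0.84 and -0.96 under P1-a2) and above 0 with sgDual (1.64).

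Levels differed widely between members and lines. In CPM per kilobase of exon in the control groups, LY6E had 86.2 in Panc10.05, 114 in BxPC3 and 129.6 in AsPC-1. PLAUR came next in Panc10.05 (42.7) and AsPC-1 (28.9). In BxPC3, LY6D was the highest at 179.8, and LYPD3 (23.5) and PLAUR (19.1) lay close together. PSCA stayed low on this scale, at 0.327, 1.76 and 1.01 in the lines in that order. LY6D was at 0.16 in Panc10.05 and 0.0207 in AsPC-1. No exon length was used for LY6S, so it has no value on this scale.

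LY6E is a GPI-anchored protein known as an interferon-stimulated gene and a restriction factor of viruses. It fell under both isoforms in both induced lines and rose with sgDual. In Panc10.05 its libraries had 218 and 237 CPM in NC, 124 and 129.8 under P1-a2 and 156 and 175 under P2-a8. BxPC3 libraries had 296 and 306 in NC, 158 and 150 under P1-a2 and 220.1 and 226 under P2-a8. In both lines P1-a2 was lowest, P2-a8 lay between, NC was highest, and no groups overlapped. The log2 fold change against NC was -0.84 under P1-a2 (SE 0.063, adjusted p 2.83e-15) and -0.46 under P2-a8 (SE 0.063, adjusted p 6.84e-08) in Panc10.05. In BxPC3 it was -0.96 (SE 0.055, adjusted p 3.6e-07) and -0.43 (SE 0.055, adjusted p 0.000614). P1-a2 was below P2-a8 by 0.38 on the log2 scale in Panc10.05 (adjusted p 2.59e-06) and by 0.53 in BxPC3 (adjusted p 0.000101). The response to P1-a2 differed between the lines by 0.13 (SE 0.091, adjusted p 0.277).

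In AsPC-1, LY6E had 303 and 382 CPM with sgNC, 285 and 394 with sgP1E, 401 and 617 with sgP1J, 191 and 277 with sgP2D, and 206 and 255 with sgP2G. With sgDual2 it had 907 and 959, and with sgDual3 1166 and 1225. All 4 sgDual libraries were above all others, and all sgP2 libraries were below both sgNC libraries. The sgDual rise was 1.64 on the log2 scale against sgNC (SE 0.271, 3.11-fold, adjusted p 0.000579), and sgP2 was at -0.56 (adjusted p 0.257). LY6E was lower with sgP2 than with sgP1 by 0.87 on the log2 scale (SE 0.206, adjusted p 0.0341). That call was lost when sgP1J was left out (-0.55, adjusted p 0.137), when sgP2D or sgP2G was left out (adjusted p 0.153 and 0.157), and without any of 6 single libraries (adjusted p 0.0556 to 0.107).

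Interferon-response genes fell with induction in both lines, as LY6E did. Of 25 listed genes, 24 were tested in each line. Under P1-a2 all 24 fell in Panc10.05 (median log2 fold change -3.31) and 21 fell in BxPC3 (-0.93). Under P2-a8, 23 fell and 1 rose in Panc10.05 (-1.25), and 12 fell in BxPC3 (-0.57). The medians over all genes were 0.02, -0.01, 0.00 and 0.01, and the shares of all genes called lower were 30.5%, 14.9%, 22.5% and 2.69%. ISG15, a ubiquitin-like protein, went from 540.1 to 46.8 CPM under P1-a2 in Panc10.05 (log2 fold change -3.53, adjusted p 3.5e-24) and did not pass in BxPC3 (-0.23, adjusted p 0.248). IFI27 fell in both (-4.35 and -1.84). LY6E, at -0.84, fell less than the median of the list in Panc10.05 and was close to it in BxPC3.

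With sgDual, 15 of the 24 genes rose and none fell (median 0.79), among them IFI27 (2.16), RSAD2 (1.78), IFI6 (1.2) and STAT2 (0.44). Of all genes, 17.8% were called higher with sgDual and 17.8% lower. Under sgP1 and sgP2, edgeR called 0 of 24 (0.265% and 3.42% of all genes), with 2 at an unadjusted p under 0.05 in each. The list medians there were 0.30 and 0.14, while LY6E was at 0.31 with sgP1 and -0.56 with sgP2, neither past the threshold. The summed level of the list was 4992 to 5481 CPM in Panc10.05 NC, against 2134 to 2435 in BxPC3 NC and 772 to 1002 with sgNC.

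**Figure D2:**
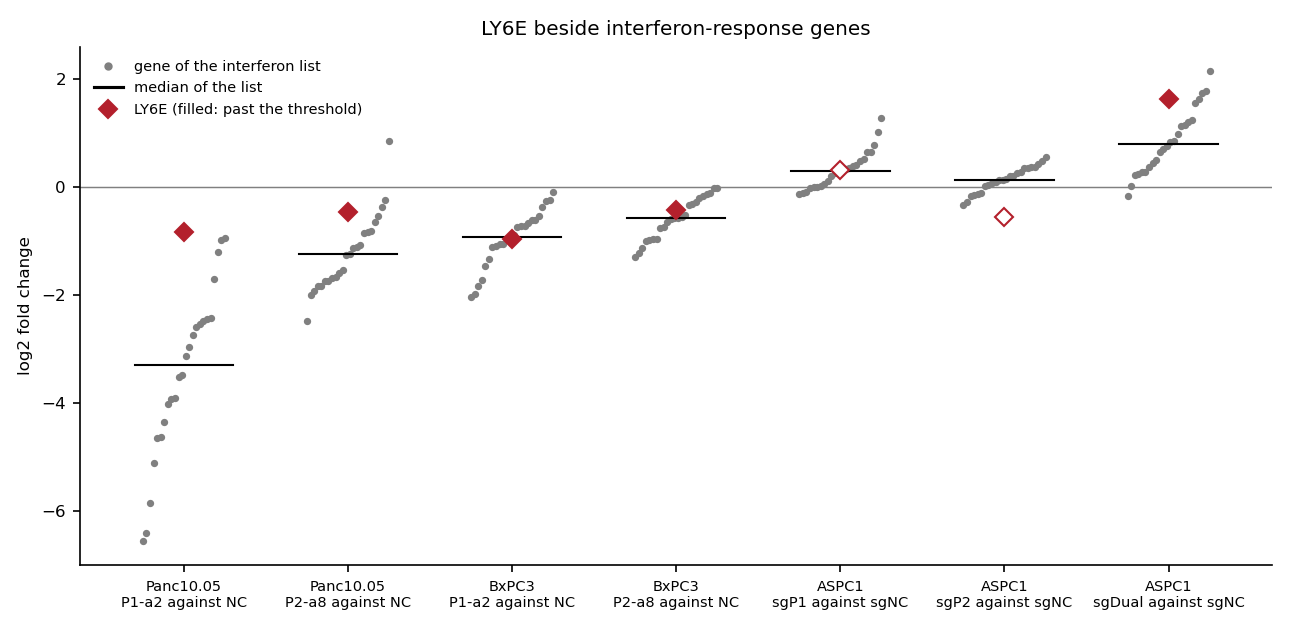
Log2 fold change of 24 interferon-response genes (grey points, with their median as a bar) and of LY6E (diamond, filled where past the threshold) in the 7 comparisons with a control group. LY6E lies above the list median in Panc10.05 (-0.84 against -3.31 under P1-a2) and with sgDual (1.64 against 0.79).

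PSCA, prostate stem cell antigen, is a surface antigen of several carcinomas. Its counts were low in every line. In Panc10.05 its CPM were 0.456 and 0.695 in NC, 1.155 and 0.717 under P1-a2, and 0.705 and 0.761 under P2-a8, with neither isoform past the threshold (log2 fold change 0.70, adjusted p 0.0766, and 0.36, adjusted p 0.446). P1-a2 passed it without P1-a2 replicate 2 (adjusted p 0.025) or NC replicate 2 (0.0434). In BxPC3, PSCA had 2.79 and 3.41 CPM in NC, 1.19 and 1.35 under P1-a2 and 0.8294 and 1.04 under P2-a8, with no overlap. It fell by 1.29 on the log2 scale under P1-a2 (SE 0.238, adjusted p 0.0017) and by 1.74 under P2-a8 (SE 0.25, adjusted p 0.0016). P1-a2 against P2-a8 missed the threshold (0.45, adjusted p 0.273).

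In AsPC-1, PSCA had 1.93 and 1.64 CPM with sgNC, 1.05 to 3.36 with sgP1 and 1.56 to 2.64 with sgP2. With sgDual2 it had 9.96 and 10.3 CPM and with sgDual3 7.7 and 6.97, above every other library. The sgDual rise was 2.29 on the log2 scale (SE 0.386, 4.89-fold, adjusted p 0.000497). JRK, which overlaps PSCA on the other strand in GENCODE v29, had means of 77.9 CPM with sgNC and 88.0 with sgDual (adjusted p 0.138). In Panc10.05, JRK fell under P1-a2 from 44.2 to 33.6 CPM (adjusted p 1.27e-05).

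LY6S, described as interferon-inducible, was near the floor with sgNC, at 7 and 15 counts, or 0.222 and 0.482 CPM. It had 0.449 and 0.572 CPM with sgP1E, 0.379 and 1.48 with sgP1J, 0.387 and 1.08 with sgP2D, and 0.24 and 0.891 with sgP2G. With sgDual2 it had 8.06 and 9.56 CPM, from 281 and 331 counts, and with sgDual3 16.1 and 19.7 CPM, from 539 and 724 counts. The 4 sgDual libraries stood above the other 10 with no overlap. The log2 fold change against sgNC was 5.24 (SE 0.728, 37.7-fold, adjusted p 0.000189), the highest of the members. Against sgP1 and sgP2, whose libraries were at low levels, it was 4.26 (SE 0.484) and 4.34 (SE 0.495).

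LINC02904, a non-coding RNA that overlaps LY6S, also rose with sgDual, from 3.67 and 3.72 CPM to between 12.5 and 18.1 (log2 fold change 1.99, SE 0.231, 3.97-fold, adjusted p 1.88e-05). The difference between the rises of these overlapping genes was not tested. In the induced lines LINC02904 was 2.6 and 2.79 CPM in BxPC3 NC and 1.73 and 1.32 under P1-a2, and 0.48 and 0.637 in Panc10.05 NC and 1.05 and 1.07 under P1-a2.

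**Figure D3:**
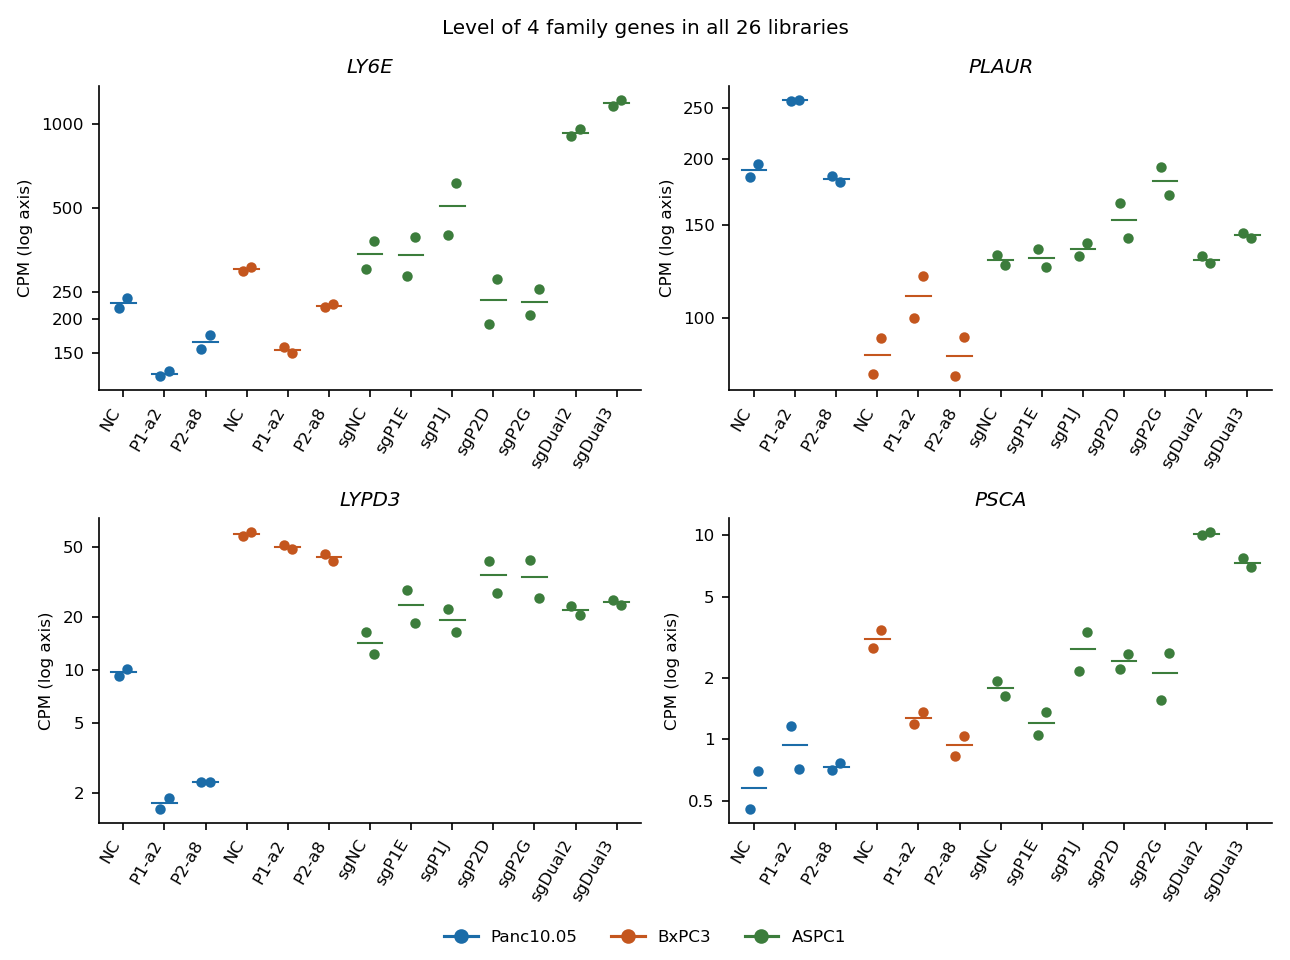
CPM of LY6E, PLAUR, LYPD3 and PSCA on log axes in every group or guide of all 26 libraries; points are libraries and bars group means. The 4 sgDual libraries hold the highest LY6E (907 to 1225) and PSCA (6.97 to 10.3), and LYPD3 in Panc10.05 falls from 9.25 and 10.14 to 1.62 and 1.87 under P1-a2.

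LY6D, a marker of stratified epithelia and B cell precursors, was well above the floor in BxPC3. Its CPM there were 251 and 307 in NC, 102 and 87.7 under P1-a2, and 226 and 216 under P2-a8. P1-a2 lay far below the other groups, and P2-a8 lay below NC with no overlap. The fall under P1-a2 was 1.56 on the log2 scale (SE 0.103, 2.95-fold, adjusted p 9.45e-06). Under P2-a8 it was -0.34 (SE 0.1, adjusted p 0.092), and P1-a2 was below P2-a8 by 1.22 (adjusted p 0.000122). The P2-a8 value was past the threshold with DESeq2 (adjusted p 0.0119), with no filter on low counts (2.42e-06) and without NC replicate 1 (0.00865). Panc10.05 libraries held 5 and 13 counts in NC, 2 and 2 under P1-a2 and 8 and 4 under P2-a8, too few to test. AsPC-1 libraries held 0 to 2 counts.

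LY6K, known as a cancer-testis antigen, was seen in Panc10.05 and BxPC3, while AsPC-1 libraries held 0 to 3 counts. In Panc10.05 its counts were 24 and 29 in NC, 8 and 3 under P1-a2 and 14 and 8 under P2-a8, so that NC was above both isoforms. It passed the filter in this line only through NC, so the tests there describe it only. It fell by 2.40 on the log2 scale under P1-a2 (SE 0.524, adjusted p 0.000114) and by 1.39 under P2-a8 (SE 0.46, adjusted p 0.012). The P2-a8 call was lost with DESeq2 (adjusted p 0.0884), without P2-a8 replicate 2 (0.0949) and without NC replicate 2 (0.152). In BxPC3 it had 7.29 and 8.85 CPM in NC, 8.22 and 10.06 under P1-a2 and 7.04 and 10.3 under P2-a8, with overlapping groups and log2 fold changes of 0.18 and 0.10 (adjusted p 0.532 and 0.837).

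The other genes between PSCA and LY6S include further family members. Of 9 listed, 4 were tested in BxPC3, and all 4 fell under P1-a2 (14.9% of all genes lower) and under P2-a8 (2.69%). SLURP2 had means of 0.202 and 0.265 CPM under these isoforms, below the filter's cutoff of 0.293 CPM. It may thus have passed the filter only through NC, where it is high, so its fall is no support. The listed gene LYNX1-SLURP2 spans both LYNX1 and SLURP2, so their falls may not be separate. Under P1-a2, LYNX1, which modulates nicotinic receptors, fell by 1.01 on the log2 scale (adjusted p 0.000707), and LYPD2 and SLURP2 by 2.84 and 2.21 from levels of 2.95 and 0.936 CPM. THEM6, not a family gene, fell by 0.74. In Panc10.05, 2 were tested, and THEM6 fell under P1-a2 (-0.92). With sgDual, LYNX1 rose by 0.90 (adjusted p 0.00152) and THEM6 was at 0.24 (adjusted p 0.311). Among 17 genes within 500 kb of the cluster on either side, 6 fell and 2 rose of 13 tested under P1-a2 in BxPC3. In Panc10.05, 6 fell and 3 rose of 13, and with sgDual 1 fell and 3 rose of 14. Of all genes, 14.9% fell and 17.1% rose under P1-a2 in BxPC3, and 30.5% and 31.5% in Panc10.05. With sgDual 17.8% fell and 17.8% rose. These neighbours were listed after the members' values had been seen.

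**Figure D4:**
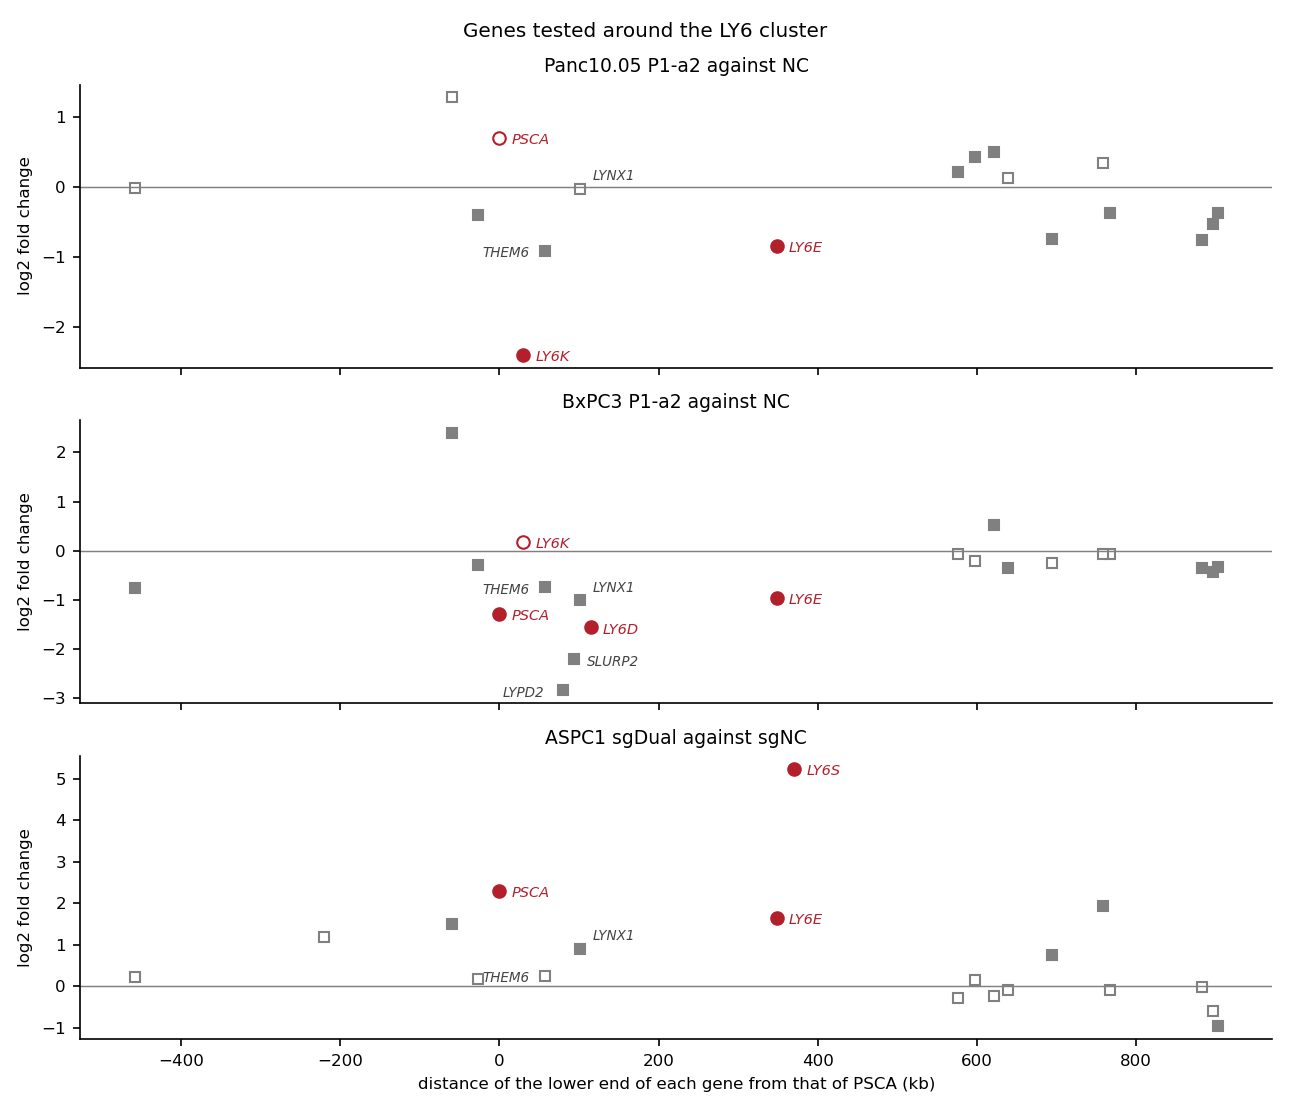
Log2 fold change by distance on chromosome 8 from PSCA (kb, lower end of each gene) under P1-a2 in Panc10.05 and BxPC3 and with sgDual in AsPC-1; circles are members, squares other genes, and filled marks are past the threshold. In BxPC3 the marks between PSCA and LY6E lie below 0 except LY6K (0.18), and with sgDual LY6S (5.24), PSCA (2.29) and LY6E (1.64) lie above it.

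LYPD3, also called C4.4A, is a GPI-anchored protein of squamous epithelium. It fell strongly with induction in Panc10.05 and slightly in BxPC3. Its CPM in Panc10.05 were 9.25 and 10.14 in NC, 1.62 and 1.87 under P1-a2 and 2.31 in both P2-a8 libraries. NC stood well apart from both isoforms. The log2 fold change was -2.46 under P1-a2 (SE 0.159, adjusted p 2.42e-17) and -2.07 under P2-a8 (SE 0.154, adjusted p 7.62e-15), while P1-a2 against P2-a8 missed the threshold (-0.40, adjusted p 0.08). BxPC3 libraries had 57.8 and 60.5 CPM in NC, 51.3 and 48.4 under P1-a2, and 45.7 and 41.6 under P2-a8. There it fell by 0.25 (adjusted p 0.0188) and by 0.44 (adjusted p 0.00329). The P1-a2 call was lost without P1-a2 replicate 2 (adjusted p 0.109) or NC replicate 2 (0.119).

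In AsPC-1, LYPD3 rose with guides to P2. It had 16.3 and 12.2 CPM with sgNC, 28.5 and 18.5 with sgP1E, 22.1 and 16.3 with sgP1J, 41.4 and 27.2 with sgP2D, 42.1 and 25.5 with sgP2G, 23.0 and 20.5 with sgDual2, and 24.9 and 23.4 with sgDual3. All sgP2 and sgDual libraries were above both sgNC libraries. Against sgNC the log2 fold change was 1.26 with sgP2 (SE 0.255, 2.39-fold, adjusted p 0.0194) and 0.69 with sgDual (SE 0.25, adjusted p 0.047). With the replicate block edgeR gave 1.24 with sgP2 (adjusted p 0.000331) and 0.71 with sgDual (adjusted p 0.00103). LYPD3 was lower with sgDual than with sgP2 by 0.57 (SE 0.195, adjusted p 0.0288), and that call was lost without any of 5 single libraries (adjusted p 0.0548 to 0.0961) or any of the 4 guides (0.0554 to 0.165). The sgP2 call was lost without sgNC replicate 1 or 2 (adjusted p 0.113 and 0.225) and with no filter on low counts (0.0614). The sgDual call was lost without any 1 of the 6 libraries compared (adjusted p 0.0535 to 0.287), without sgDual2 (0.0811) or sgDual3 (0.162), and with no filter (0.144). The difference between sgP2 and sgP1 missed the threshold (0.67, adjusted p 0.0739), and passed it with DESeq2 (0.00901), with the replicate block (0.00242) and without sgP1E (0.0306).

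LYPD6B, known to act on nicotinic receptors, was expressed in BxPC3 and near the floor in Panc10.05. BxPC3 libraries had 9.26 and 10.11 CPM in NC, 4.58 and 3.08 under P1-a2, and 5.61 and 6.46 under P2-a8. NC was above both isoforms. It fell by 1.35 on the log2 scale under P1-a2 (SE 0.183, adjusted p 0.000209) and by 0.69 under P2-a8 (SE 0.174, adjusted p 0.0378). P1-a2 was below P2-a8 by 0.66 (adjusted p 0.0263). The P2-a8 call was lost without NC replicate 1 (adjusted p 0.0885), NC replicate 2 (0.214) or P2-a8 replicate 1 (0.14). The difference between isoforms was lost without P1-a2 replicate 2 (-0.38, adjusted p 0.2) or P2-a8 replicate 2 (0.119).

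In Panc10.05, LYPD6B had 1 and 0 counts in NC, 6 and 11 under P1-a2 and 14 and 9 under P2-a8. NC was at the floor, taken as 3 counts per library, which allows up to 0.0869 CPM, so the level was at least 2.26-fold higher under P1-a2 and at least 3.18-fold higher under P2-a8. The gene passed the filter on low counts only through the P2-a8 libraries, so its adjusted p-values (0.00339 and 0.000812) are no support for the difference, and that under P1-a2 missed the threshold without NC replicate 2 (0.0505). AsPC-1 had 0 counts in all 14 libraries, which allows up to 0.116 CPM.

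**Figure D5:**
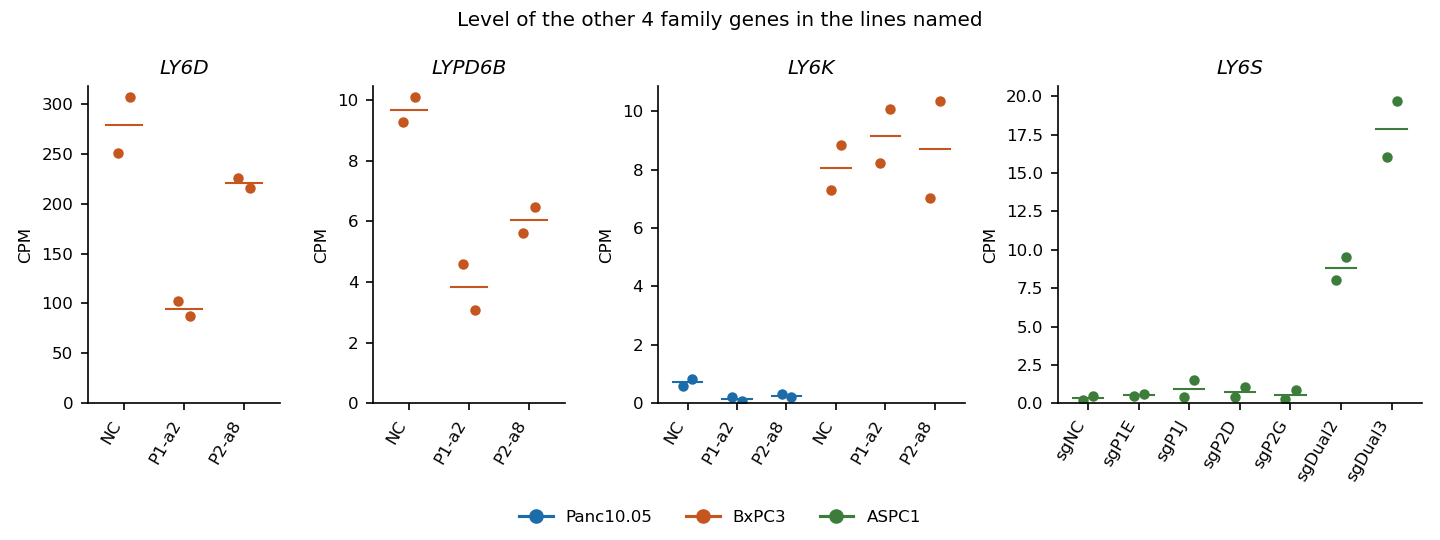
CPM of LY6D, LYPD6B, LY6K and LY6S in the lines where they passed the filter on low counts (LYPD6B shown in BxPC3); points are libraries and bars group means. LY6D falls from 251 and 307 to 102 and 87.7 under P1-a2 in BxPC3, and LY6S is above 8 CPM only with sgDual2 and sgDual3.

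PLAUR, the urokinase receptor, rose under P1-a2 in both induced lines, while P2-a8 gave log2 fold changes of -0.05 and -0.01 (adjusted p 0.499 and 0.985). Panc10.05 libraries had 185 and 196 CPM in NC, 258 and 259 under P1-a2, and 186 and 181 under P2-a8. P1-a2 stood apart, and P2-a8 overlapped NC. The P1-a2 rise was 0.44 on the log2 scale (SE 0.059, adjusted p 1.38e-08) over NC and 0.50 over P2-a8 (SE 0.059, adjusted p 2.72e-09). BxPC3 libraries had 78.3 and 91.9 in NC, 100.3 and 120 under P1-a2, and 77.6 and 92.2 under P2-a8. The rise over NC was 0.37 (SE 0.12, adjusted p 0.0489), which was lost without NC replicate 1 (adjusted p 0.223) or without P1-a2 replicate 2 (log2 0.23, adjusted p 0.221). P1-a2 was above P2-a8 by 0.38 (SE 0.119, adjusted p 0.0591), and this passed with DESeq2 (adjusted p 0.00475), total counts (0.0275), no filter (4.13e-07), only the 2 groups fitted (0.035) or the replicate block (3.72e-06).

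In AsPC-1, PLAUR had 132 and 126 CPM with sgNC, 125 to 139 with sgP1, 165 and 142 with sgP2D, 193 and 171 with sgP2G, and 127 to 145 with sgDual. It rose by 0.38 with sgP2 (SE 0.0995, adjusted p 0.0486). PLAUR was also higher with sgP2 than with sgP1 by 0.34 (SE 0.08, adjusted p 0.0249) and lower with sgDual than with sgP2 by 0.30 (SE 0.08, adjusted p 0.00617), where libraries overlap. Without sgP2G these 3 calls were lost, at 0.25 (adjusted p 0.224), 0.22 (0.208) and -0.16 (0.139). The call against sgNC was also lost without sgNC replicate 1 (0.244) or 2 (0.325), sgP2D replicate 1 (0.0853), sgP2G replicate 1 (0.105) or sgP2G replicate 2 (0.0893), and when only the 2 groups were fitted (0.0755). The call against sgP1 was lost with only those 2 groups (0.105) and without sgP2D replicate 1 (0.0625), sgP2G replicate 1 (0.083), sgP2G replicate 2 (0.0564) or sgP1E replicate 2 (0.0562), and the call between sgDual and sgP2 without sgDual2 (0.11).

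The urokinase system around PLAUR (25 genes listed) did not move as one. Under P1-a2 in Panc10.05, 5 of 23 tested rose and 12 fell (median -0.36). PLAU, the protease that PLAUR binds, fell from 687 to 467 CPM (-0.56, adjusted p 7.31e-11), and SERPINE2, an inhibitor of related proteases, rose from 0.513 to 13.9 CPM (4.71). Under P2-a8, 12 rose and 8 fell (0.17), with CTSB, a lysosomal protease, up by 0.87. In BxPC3, 7 of 22 rose and 6 fell under P1-a2 (0.13): SERPINE2 rose by 1.23 and CTSB by 0.78, and PLAT, tissue plasminogen activator, fell by 0.68. Under P2-a8 there, 4 rose and 1 fell (0.06). Of all genes, 31.5% rose and 30.5% fell under P1-a2 in Panc10.05, and 23.7% and 22.5% under P2-a8. In BxPC3 these shares were 17.1% and 14.9% under P1-a2, and 4.3% and 2.69% under P2-a8.

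In AsPC-1, sgP2 raised 2 of 19 and lowered 1 (0.12). PLAU rose with it from 48.0 to 133 CPM (1.47, adjusted p 0.0444), together with its receptor, and PLAT by 0.90. With sgDual, 8 rose and 3 fell (0.32). PLAT went from 1313 to 4092 CPM (1.64, adjusted p 8.23e-05), LRP1, a clearance receptor, rose by 1.32, and the integrin ITGAV by 1.05. Under sgP1 edgeR called 0 of 19 (0.265% of all genes), with 2 at an unadjusted p under 0.05. Of all genes, 1.66% rose and 1.76% fell with sgP2, and 17.8% rose and 17.8% fell with sgDual.

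Of the other members of the family (28 listed), those called in BxPC3 were lower, and in Panc10.05 they were mixed. In BxPC3, 12 were tested, with 6 lower and 0 higher under P1-a2 (median -0.54) and 3 lower and 0 higher under P2-a8 (-0.18). In Panc10.05, 10 were tested, with 5 higher and 3 lower under P1-a2 (0.48) and 2 higher and 3 lower under P2-a8 (0.18). CD59, the inhibitor of the complement attack complex, fell there from 519 to 280.4 CPM under P1-a2 (-0.89, adjusted p 1.1e-16). LY6G5B rose by 1.03 (adjusted p 8.42e-08). With sgDual 1 of 8 was called, LYNX1 (35.6% of all genes called). In BxPC3 the shares of all genes called higher and lower were 17.1% and 14.9% under P1-a2, and 4.3% and 2.69% under P2-a8. In Panc10.05 they were 31.5% and 30.5% under P1-a2, and 23.7% and 22.5% under P2-a8. PATE2, counted lower in Panc10.05, had means of 0.209 and 0.159 CPM under P1-a2 and P2-a8, below the filter's cutoff of 0.248 CPM there. It may thus have passed the filter only through NC, so its fall is no support. LYPD1, counted higher in Panc10.05, had NC at the floor, so its size is no measure. The BxPC3 counts include LYNX1, LYPD2 and SLURP2, already counted above between PSCA and LY6S.

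Genes that build and attach the GPI anchor (31 listed) showed 8 higher and 12 lower of 30 tested under P1-a2 in Panc10.05, 2 higher and 6 lower of 30 in BxPC3, and 3 higher and 7 lower of 29 with sgDual. Their medians were -0.17, -0.10 and -0.04. Of all genes, 62.0%, 32.0% and 35.6% were called in these comparisons, so the counts of this list lie near the share of all genes. Under P2-a8, 9 were higher and 8 lower in Panc10.05 (46.2% of all genes called). In BxPC3 edgeR called 0 under P2-a8 (6.99% of all genes), with 4 at an unadjusted p under 0.05. Squamous and basal genes (23 listed), which stand beside LY6D and LYPD3, summed to 15337 to 15621 CPM in BxPC3 NC, 886 to 967 in Panc10.05 NC and 560 to 669 with sgNC. Of those tested under P1-a2, 8 of 15 rose and 5 fell in Panc10.05, and 6 of 22 rose and 8 fell in BxPC3. With sgDual 2 of 15 rose and 1 fell. The shares of all genes called higher and lower were 31.5% and 30.5% under P1-a2 in Panc10.05, and 17.1% and 14.9% in BxPC3. With sgDual they were 17.8% and 17.8%.

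Guides were also tested one by one. Against sgNC, sgDual2 and sgDual3 each called 3 of 5 members, LY6S, LY6E and PSCA (36.9% and 37.2% of all genes were called). LY6S rose by 4.64 with sgDual2 (SE 0.579, adjusted p 0.000151) and 5.66 with sgDual3 (SE 0.561, adjusted p 3.04e-05). LY6E rose by 1.45 and 1.80, and PSCA by 2.50 and 2.04. Between sgDual2 and sgDual3 edgeR called 0 of 5 members, with 2 at an unadjusted p under 0.05 (0.883% of all genes called). With sgP2D, 1 of 5 was called, LYPD3 at 1.26 (adjusted p 0.0348, 8.52% of all genes called), and with sgP2G 2 of 5, LYPD3 at 1.25 (adjusted p 0.0374) and PLAUR at 0.50 (adjusted p 0.00284, 8.16% called). Both LYPD3 calls were lost without either sgNC library or without replicate 1 of the guide itself (adjusted p 0.103 to 0.249), and PLAUR without sgP2G replicate 1 (0.0514). Between sgP2D and sgP2G edgeR called 0 of 5, with 1 at an unadjusted p under 0.05 (1.69% called). These calls are without the replicate block. With it edgeR also called LY6E lower with sgP2D (-0.56, adjusted p 0.00752) and sgP2G (-0.57, adjusted p 0.007). PLAUR was then also called higher with sgP2D (0.25, adjusted p 0.0111), and LYPD3 with sgDual2 (0.62, adjusted p 0.00171) and sgDual3 (0.78, adjusted p 0.00026).

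Guides to P1 gave no call against sgNC in edgeR without a replicate block, where 8.62% of all genes were called with sgP1E and 3.04% with sgP1J. At an unadjusted p under 0.05 there were 1 member with sgP1E and 2 with sgP1J. With the block edgeR called LYPD3 with sgP1E (log2 fold change 0.71, adjusted p 0.00182) and LY6E with sgP1J (0.56, adjusted p 0.0143). The guides differed from each other in PSCA (14.5% of all genes called), which had 1.05 and 1.35 CPM with sgP1E and 2.16 and 3.36 with sgP1J (log2 fold change -1.21, SE 0.266, adjusted p 0.00831). That call was lost without sgP1E replicate 1 (adjusted p 0.0842) or sgP1J replicate 2 (0.0946).

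Panc10.05 and BxPC3 responded differently in several members, tested as an interaction in a joint fit of 12 libraries. Under P1-a2, 4 of 7 members differed (36.4% of all genes), under P2-a8 4 of 7 (23.5%), and between isoforms 1 of 7 (22.3%). Both counts of 4 include LY6K and LYPD6B, whose Panc10.05 libraries held only 3 to 29 and 0 to 14 counts, so their tests describe them only. As Panc10.05 minus BxPC3 under P1-a2, LYPD3 differed by -2.20 on the log2 scale (SE 0.148, adjusted p 5.54e-11) and LY6K by -2.56 (SE 0.543, adjusted p 0.000703), both lower in Panc10.05. PSCA differed by 2.002 (SE 0.428, adjusted p 0.000639), with a called fall in BxPC3 and a value of 0.70 in Panc10.05. The line, dose, control construct and count table differ together between the lines and cannot be told apart.

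Across libraries, the genes most like each member by Pearson's r were searched among 14513 genes, using log CPM with each line's mean subtracted, so that differences in level between the lines do not enter. They were ORAI2 and MPG for LY6S (both 0.984, 14 AsPC-1 libraries), and, over 26 libraries, MBD6 and PIGT for LY6E (0.945 and 0.944), LINC02904 and SDR16C5 for PSCA (0.891 and 0.887), SENP2 and WWTR1 for LYPD3 (0.891 and 0.886), SPHK1 and FBXL12 for PLAUR (0.869 and 0.867), MOB1A for LYPD6B (0.918), C12orf57 for LY6K (0.865) and HNRNPDL for LY6D (0.809). Among members, r was 0.919 for LY6S with PSCA and 0.917 for LY6S with LY6E over 14 libraries, and 0.739 for LY6E with PSCA over 26. In AsPC-1, LYPD6B had 0 counts throughout, LY6K at most 3 and LY6D at most 2, and in Panc10.05 LY6D had 2 to 13. The r of these genes over 26 libraries thus includes libraries at or near the floor. The libraries share lines, groups and depth, so these values describe likeness only.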

How the data were processed

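The authors deposited raw counts for each gene, in 1 table per line. Per the submitters' processing notes, the tools were STAR 2.7.9a, cutadapt 1.16, featureCounts 1.6.3 and DESeq2 1.36.0 with GRCh38; their settings and the annotation are not given in the sources used here. Symbols matched 99.88% of identifiers in Panc10.05 and BxPC3 and 99.91% in AsPC-1. The members and gene lists were chosen with earlier results of these data known.

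Groups came from the genotype labels. edgeR's filterByExpr kept 17247, 17635 and 16992 genes in Panc10.05, BxPC3 and AsPC-1. Libraries were scaled by TMM, and edgeR's quasi-likelihood test (robust) was run with all groups of a table in 1 fit, with Benjamini-Hochberg adjustment over all genes tested. The SE is the absolute log2 fold change divided by the square root of F. Guides were fitted as 7 groups, and the lines jointly over 19372 genes. CPM use the same scaling; values per kilobase use GENCODE v29 exons. A group with at most 3 counts in every library was at the floor, and folds against it are lower bounds that cover counting error only. Between replicates, chi-square divided by its degrees of freedom was 5.08 to 24.1, so none was counted as a duplicate. The fits were tested on simulated data.

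List genes are named where they passed the threshold, had a mean of at least 5 CPM and groups that did not overlap. LYPD1, LYPD2, PATE2, SLURP2, and RSAD2, IFI27 and LYNX1 in AsPC-1, were also named after their values were seen. Alternatives were DESeq2, RLE or total-count scaling, no filter, only the 2 groups, the replicate block, single libraries or guides left out, and a log2 limit of 1. The software was DESeq2 1.42.0, edgeR 4.0.16 and limma 3.58.1 under R 4.3.3, with matplotlib 3.10.9, pandas 2.3.3 and numpy 2.4.6 under Python 3.11.15. Some list genes are not reported here.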

Additional observations from a re-analysis of the deposited data

Results flagged for a closer look

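In 9 results the response to HNF4α induction differed between Panc10.05 and BxPC3 by the test of the difference itself (edgeR's quasi-likelihood test of an interaction, values as Panc10.05 minus BxPC3 on the log2 scale). Under P1-a2 against NC these were LY6K at -2.56 (adjusted p 0.000703), LYPD3 at -2.20 (5.54e-11), LYPD6B at 4.97 (0.000147) and PSCA at 2.002 (0.000639). Under P2-a8 against NC the same genes gave -1.47 for LY6K (adjusted p 0.028), -1.63 for LYPD3 (1.45e-08), 4.78 for LYPD6B (0.000296) and 2.10 for PSCA (0.00121). Between P1-a2 and P2-a8, LYPD3 differed by -0.58 (adjusted p 0.0166). Both LYPD6B sizes are fitted against a Panc10.05 control at the floor of detection, and are no measure of size. Panc10.05 libraries held 0 to 14 counts of LYPD6B and 3 to 29 of LY6K, so the tests of both genes describe them only. The LY6K value under P2-a8 was lost without any of 5 single libraries (adjusted p 0.059 to 0.168), and the LYPD3 difference between isoforms without Panc10.05 P1-a2 replicate 1 (0.0932) or P2-a8 replicate 1 (0.0579).

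In 15 sets of 4 libraries (5 members with 3 targets in AsPC-1), no library passed the limit of Dixon's test, a limit that is hard to pass with 4 libraries. LY6S with sgP1 fell just short of it, with a gap of 0.826 of the range: it had 1.48 CPM in sgP1J replicate 2 against 0.379 to 0.572 in the other libraries.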

How the results depend on the processing

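Over the single-member values recomputed under alternatives, 936 of 1057 kept their direction and side of the threshold. Calls were lost in 77 and gained in 19, and 25 changed sign, all 25 with neither value past the threshold. Leaving out single libraries aside, 517 of 557 kept both. The cause of these changes was not tested.

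Requiring a log2 fold change of at least 1 in size as well gave 3 members called for P1-a2 and 0 between isoforms in Panc10.05. In BxPC3 it gave 3 for P1-a2, 1 for P2-a8 and 1 between isoforms. In AsPC-1 it gave 1 for sgP2, 0 between sgP2 and sgP1 and 3 between sgDual and sgP2. For sgP2 against sgNC the count was 1 with no filter, with only the 2 groups and without guide sgP2G. Between sgP2 and sgP1 it was 1 with no filter, without sgP1J or without sgP2D, and 0 with only the 2 groups or without sgP2G. Between sgDual and sgP2 it was 3 without sgP2G or without sgDual2. Total counts gave 2 for sgP2D. Of the 3 members called at the log2 limit for P1-a2 in Panc10.05, LY6K passed the filter only through NC and LYPD6B only through P2-a8. Their part of that count is thus no support. The shares of all genes at these settings are not given here, so the counts describe the members only.

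The same replicate numbers occur in the groups, and the labels do not say what they mark. They were not taken as pairs, because not every correlation of same-numbered deviations passed 0.1: the values were -0.0119 to 0.00733 in Panc10.05 (3 pairs), 0.0727 to 0.131 in BxPC3 (3) and 0.0772 to 0.339 in AsPC-1 (21). Every correlation in BxPC3 and AsPC-1 was above 0, and the 10 in AsPC-1 among sgNC and the guides to P1 and P2 were 0.217 to 0.339. The main fits carry no term for the replicate number, so a shift shared by it stays in their spread. With the replicate block the count was 5 between isoforms in BxPC3, and 1 each for sgP1E (LYPD3) and sgP1J (LY6E). It was 3 for sgP2D and 3 for sgP2G, with LY6E lower and LYPD3 and PLAUR higher in each. For sgDual2 and sgDual3 it was 4 each, with LYPD3 added. It was 2 between sgP1E and sgP1J, 1 between sgP2D and sgP2G (PLAUR), and 1 between sgDual2 and sgDual3 (LY6S). The shares of all genes called in the single-guide fits with the block are not given here, so these counts describe the members only.

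Values that changed sign without a guide were LY6E (-0.012) and PSCA (-0.59) for sgP1 without sgP1J, and PSCA for sgP2 against sgP1 without sgP1E (-0.28). For the same targets LY6S gave 0.39 without sgP1J and 0.12 without sgP2G. Between sgDual and sgP1, PLAUR gave -0.034 without sgDual3 and LYPD3 -0.039 without sgP1J. The difference between lines in LY6E under P2-a8 was 0.015 with total counts and ranged from -0.076 to 0.071 with each library left out.

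With each library left out in turn, the ranges were -0.024 to 0.66 for PSCA between isoforms in Panc10.05, -0.15 to 0.10 for PLAUR and -0.22 to 0.34 for LY6K under P2-a8 in BxPC3, and -0.15 to 0.40 for LY6K between isoforms there. In AsPC-1 they were -0.25 to 0.35 for PSCA with sgP1, -0.022 to 0.59 for PSCA and -0.46 to 0.49 for LY6S between sgP2 and sgP1, and -0.0083 to 0.28 for LYPD3 between sgDual and sgP1. Counts of members called ranged from 0 to 2 for sgP2 and 0 to 3 between sgP2 and sgP1, from 0 to 1 for sgP2D, 0 to 2 for sgP2G and 0 to 1 between sgP1E and sgP1J, and from 0 to 1 for the difference between lines in P1-a2 against P2-a8.

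Over all genes, sgP1 called 45, against 242 with DESeq2, 81 with no filter, 7 with only the 2 groups and 127 with the block. For sgP2 the counts were 581, 1132 (DESeq2), 1103 (2 groups) and 972 (block), between sgP2 and sgP1 731, 1272, 189 and 1204, for P2-a8 in BxPC3 1232, with 1982 (no filter) and 2886 (block), and between isoforms there 3963 and 5992 (block). Low counts limit PSCA, LY6K and LYPD6B in Panc10.05 and LY6S with sgNC.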

Other observations

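In AsPC-1, libraries numbered 2 had more LY6E and LY6S than those numbered 1 with 7 of 7 guides, sgNC included, and less LYPD3 with 7 of 7. PLAUR was lower in the libraries numbered 2 with 6 of 7 and PSCA higher with 5 of 7. The labels do not say what the number marks.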
